A study of Mus musculus with 10 samples.

Results

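Lcn2, Chil1, Slpi and Steap4 are 4 inflammation-induced mouse genes, of which the first 3 encode secreted proteins and Steap4 a membrane enzyme that reduces iron and copper. They were followed across 10 arrays of osteoblastic lineage cells (OBCs), the cells of the bone-forming lineage, from leukemic and control mice. Each gene was found by its symbol among probe sets annotated with a single symbol. Each had 1 such probe set (10481627 for Lcn2, 10349968 for Chil1, 10489463 for Slpi and 10519497 for Steap4), so 4 of 19938 genes measured are described. They were picked with earlier results of these arrays known. Their differences between BA and control arrays ranked 3rd (Lcn2), 2nd (Chil1), 16th (Slpi) and 7th (Steap4) from the top of all 19938 genes, and those values are given below as a description, with no test.

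The 5 BA mice were diseased Scl-tTA::TRE-BCR/ABL animals on a C57BL/6 background, in which a transactivator under Scl control switches on the BCR/ABL oncogene once doxycycline is removed. The 5 control mice were age-matched C57BL/6 animals whose genotype the labels do not give. Doxycycline was withdrawn from both groups at 5 weeks of age and bones were taken 5 to 6 weeks later, at 10 to 11 weeks of age. Endosteal cells were stained with antibodies to CD51, CD45, Sca-1, CD31 and lineage antigens, and between 500 and 2300 OBCs were sorted per mouse. Their RNA was amplified and hybridised, with 1 mouse on each array. The labels do not give the gates of the sort.

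The 4 proteins belong to the response of epithelia and stroma to bacterial products and to cytokines such as interleukin-1, interleukin-17 and tumour necrosis factor. Lipocalin 2, the product of Lcn2, binds the iron carriers (siderophores) of bacteria and so withholds iron from them. It is stored in neutrophil granules and is also released by osteoblasts. Chil1 encodes a chitinase-like lectin (YKL-40 in humans, BRP-39 in mice) that binds chitin without cutting it and is made by cartilage cells, macrophages and neutrophils. Slpi encodes secretory leukocyte protease inhibitor, which blocks neutrophil elastase and cathepsin G. Steap4 encodes a metalloreductase of the six-transmembrane family that is induced by inflammation in fat cells.

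The 250 bases before each annotated transcript start are printed because NF-kB, C/EBP and STAT factors are the textbook inducers of such genes. All 4 genes matched the RefSeq promoter table of build GRCm38.p6. Sequences run 5′ to 3′ on the strand of the gene, and capitals mark every match, on either strand, to a loose NF-kB pattern (GGG, any 5 bases, CC), to the usual NF-kB consensus, which is a subset of that pattern, to the C/EBP pattern TTNNGNAA or to the STAT pattern TTCNNNGAA.
Lcn2 (chr2:32387740-32387989, minus strand): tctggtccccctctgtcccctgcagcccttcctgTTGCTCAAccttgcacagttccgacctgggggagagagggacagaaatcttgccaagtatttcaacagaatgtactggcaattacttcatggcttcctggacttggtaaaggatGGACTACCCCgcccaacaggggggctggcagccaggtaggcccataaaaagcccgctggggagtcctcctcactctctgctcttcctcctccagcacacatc
Chil1 (chr1:134181906-134182155, plus strand): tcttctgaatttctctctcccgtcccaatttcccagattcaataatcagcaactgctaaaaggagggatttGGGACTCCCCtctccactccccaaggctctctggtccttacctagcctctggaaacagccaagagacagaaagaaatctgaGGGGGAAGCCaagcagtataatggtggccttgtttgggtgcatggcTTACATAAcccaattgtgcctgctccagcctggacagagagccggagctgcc
Slpi (chr2:164356508-164356757, minus strand): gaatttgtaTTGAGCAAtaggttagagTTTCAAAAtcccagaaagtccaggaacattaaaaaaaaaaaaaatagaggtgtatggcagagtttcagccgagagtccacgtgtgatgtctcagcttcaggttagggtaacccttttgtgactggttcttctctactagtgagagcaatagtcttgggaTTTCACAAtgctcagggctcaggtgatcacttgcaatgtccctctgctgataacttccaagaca
Steap4 (chr5:7960222-7960471, plus strand): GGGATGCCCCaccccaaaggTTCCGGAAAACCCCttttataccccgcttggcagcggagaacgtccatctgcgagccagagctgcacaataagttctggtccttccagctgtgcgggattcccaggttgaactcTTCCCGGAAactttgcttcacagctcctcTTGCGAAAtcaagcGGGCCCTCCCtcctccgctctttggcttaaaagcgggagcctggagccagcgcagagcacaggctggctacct

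The loose NF-kB pattern was found at 1 position before Lcn2 (102 to 93 bases before the start), at 2 before Chil1 and at 3 before Steap4, and not before Slpi. It is common, occurring in 45.8% of the 32851 windows of the same length in the table. The usual consensus, present in 3.90% of those windows, occurred once before Chil1 (179 to 170 bases before the start) and at 2 positions before Steap4 (250 to 241 and 226 to 217). The C/EBP pattern (36.8% of windows) occurred before all 4 genes, at 1 position for Lcn2 and Chil1, at 2 for Steap4 and at 3 for Slpi. The STAT pattern (7.02% of windows) occurred before Steap4, 116 to 108 bases from the start. In Steap4 a C/EBP and an NF-kB match overlap, with the C/EBP match at 230 to 223 bases. Each match is a run of letters, not a measured binding site.

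**Figure D1:**
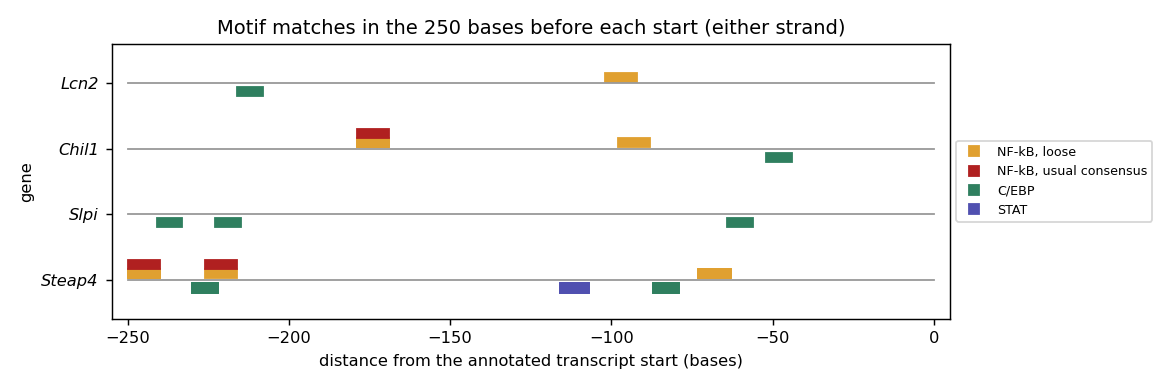
Positions of motif matches in the 250 bases before the annotated start of each gene (x axis, bases from the start). Boxes above a line are NF-kB patterns (loose and usual consensus) and boxes below it C/EBP or STAT patterns; Slpi has 3 C/EBP matches and no NF-kB match, and Steap4 is the gene with a STAT match.

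Lcn2 stood at 10.78, 11.05, 12, 8.54 and 11.74 on BA replicates 1 to 5, against 6.01, 6.39, 5.69, 5.78 and 8.10 on control replicates 1 to 5 (log2 level, as are all levels below). Every BA array was above every control array, but the lowest BA array (replicate 4) and the highest control array (replicate 5) were only 0.44 apart. The means were 10.82 ± 1.37 in BA and 6.39 ± 0.99 in control cells (SD, n = 5 each), a difference of 4.43 or 21.5-fold. Control replicate 5 set most of the spread among controls: the other 4 lay between 5.69 and 6.39, and without it the difference was 4.85.

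Chil1, the chitinase-like gene, stood at 12.26, 12.76, 12.92, 8.55 and 12.69 on BA replicates 1 to 5, against 7.5, 7.97, 7.02, 7.35 and 6.68 on control replicates 1 to 5. The groups did not overlap, with 0.58 between the nearest arrays. BA replicate 4 was the exception among the diseased mice, since the other 4 lay within 12.26 to 12.92. Chil1 averaged 11.84 ± 1.85 in BA and 7.30 ± 0.49 in control cells (SD, n = 5 each), a difference of 4.53 or 23.1-fold. Without BA replicate 4 the difference was 5.35, or 40.9-fold.

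Slpi, the protease inhibitor gene, stood at 8.38, 10.01, 9.78, 7.52 and 9.96 on BA replicates 1 to 5, against 6.71, 7.13, 6.88, 6.66 and 6.89 on control replicates 1 to 5. The control arrays were tight, between 6.66 and 7.13, while the BA arrays spread from 7.52 to 10.01. The groups did not overlap, although BA replicate 4 lay 0.39 above the highest control. The means were 9.13 ± 1.12 in BA and 6.85 ± 0.18 in control cells (SD, n = 5 each), a difference of 2.28 or 4.84-fold.

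Steap4, the metalloreductase gene, stood at 11, 11.57, 11.80, 7.95 and 11.23 on BA replicates 1 to 5, against 8.23, 8.25, 8.77, 7.64 and 6.99 on control replicates 1 to 5. Here the groups overlapped: 4 BA arrays were above all controls, and BA replicate 4 fell inside the control range of 6.99 to 8.77. Steap4 averaged 10.71 ± 1.57 in BA and 7.98 ± 0.68 in control cells (SD, n = 5 each), a difference of 2.73 or 6.65-fold. Without BA replicate 4 the difference was 3.42, or 10.7-fold.

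The groups were thus apart for 3 of the 4 genes. Over all genes, 0.567% were higher in BA cells with no overlap and 1.10% lower. The genes were chosen from this contrast, so nothing is read from that comparison.

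**Figure D2:**
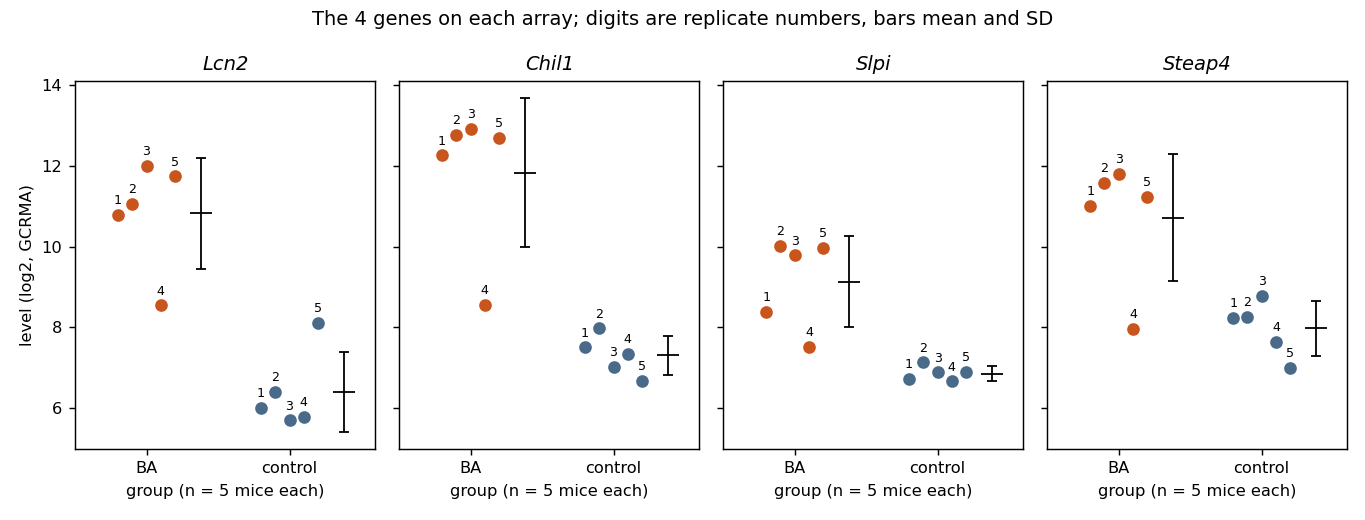
Log2 level (y axis) of each gene on the 5 BA arrays (left in each panel) and the 5 control arrays (right), 1 point per mouse with its replicate number; the horizontal mark is the mean and the bar the SD. BA replicate 4 lies below the other BA arrays in all 4 panels, and control replicate 5 is the highest control for Lcn2 but the lowest for Chil1 and Steap4.

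BA replicate 4 was the lowest BA array for all 4 genes, but to different degrees. Relative to the control mean, Lcn2 was 2.15 higher on that array, Chil1 1.25 higher, Slpi 0.67 higher and Steap4 0.03 lower (-0.03). The corresponding differences for the mean of the other 4 BA arrays were 5.00, 5.35, 2.68 and 3.42. The array thus kept 42.9% of the log2 difference of the other BA arrays for Lcn2, 23.3% for Chil1 and 24.9% for Slpi, and none for Steap4. Among the other 4 BA arrays the SDs were 0.57 for Lcn2, 0.28 for Chil1, 0.77 for Slpi and 0.35 for Steap4. Slpi kept the widest spread because BA replicate 1 was at 8.38 and the remaining 3 at 9.78 to 10.01.

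The arrays came from mice of both sexes, as read from Xist, which was between 9.81 and 10.70 on BA replicates 2, 4 and 5 and control replicates 4 and 5, and between 3.85 and 5.08 on the remaining arrays. Within the high-Xist arrays the BA minus control differences were 3.50 for Lcn2, 4.32 for Chil1, 2.39 for Slpi and 2.94 for Steap4. Within the low-Xist arrays they were 5.36, 5.09, 2.17 and 2.98. The direction was the same in both for each gene. The 2 arrays that stand apart, BA replicate 4 and control replicate 5, both fall among the high-Xist arrays.

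With the group means removed, the 4 genes still moved together over the 10 arrays, and this rested largely on BA replicate 4. Pearson's r of the deviations was 0.93 for Chil1 with Steap4, 0.84 for Chil1 with Slpi, 0.80 for Slpi with Steap4, 0.73 for Lcn2 with Slpi, 0.68 for Lcn2 with Chil1 and 0.53 for Lcn2 with Steap4. These are descriptions over 10 arrays that share their normalization. Without BA replicate 4 the values were 0.54, 0.46, 0.32, 0.34, -0.24 and -0.53 in the same order. The pairs with negative values both held Lcn2, and control replicate 5 had the highest control Lcn2 together with the lowest control Chil1 and Steap4.

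**Figure D3:**
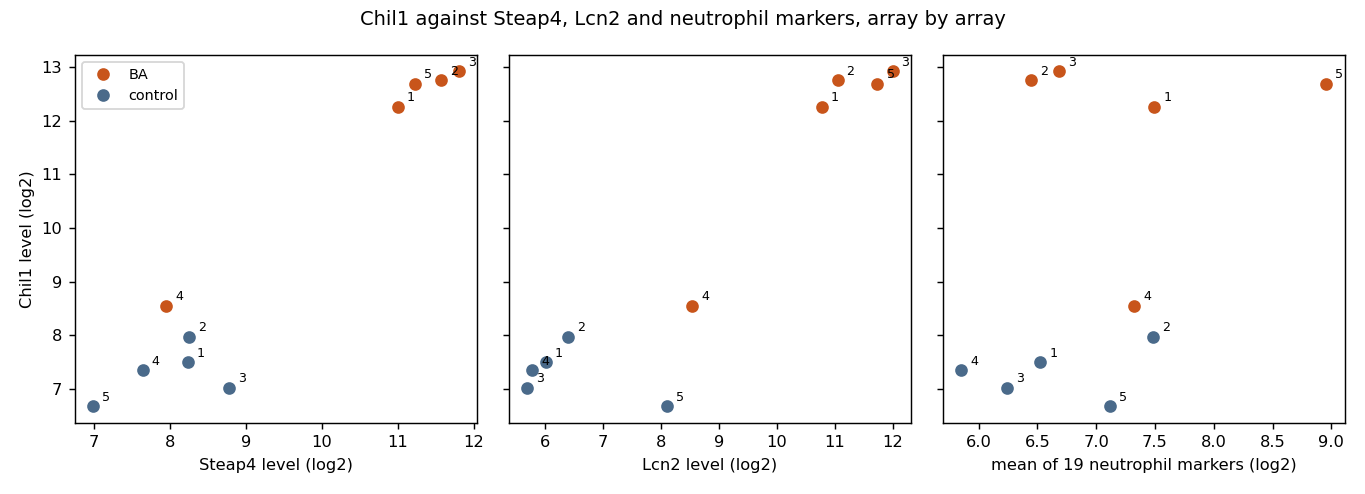
Chil1 level (y axis, log2) against Steap4, Lcn2 and the mean of 19 neutrophil markers (x axes, log2), 1 point per array with its replicate number. BA replicate 4 sits beside the controls for Steap4 and between the groups for Lcn2. The neutrophil marker means of BA replicates 2, 3 and 4 (6.45, 6.68 and 7.33) are within the control range of 5.85 to 7.48. That of BA replicate 1 (7.49) is at its edge and that of BA replicate 5 (8.96) above it. The part of blood cell RNA in Chil1 was not tested.

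For each gene, the 5 genes most like it were taken by Pearson's r over the 10 arrays. Candidates were genes with a range of at least 2 on the log2 scale. The genes followed here were chosen from the contrast of BA and control arrays, and r over all arrays includes that difference. It therefore favours genes with a similar difference, and a high r by itself does not show likeness within the groups. Serum amyloid A genes, which encode acute-phase proteins, were on the lists of Chil1 (Saa1, Saa2, Saa3), Slpi (Saa1) and Steap4 (Saa1, Saa3). Chil1 itself was on the lists of the other 3 genes. The closest partners were Asic3, an acid-sensing ion channel gene, for Lcn2 (r = 0.95), the growth factor gene Tgfb2 for Chil1 (r = 0.98), the nuclear protein gene Tox4 for Slpi (r = 0.97) and the stromelysin gene Mmp3 for Steap4 (r = 0.97).

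The list of Lcn2 was completed by Tox4 (0.94), the mitochondrial superoxide dismutase gene Sod2 (0.94), the glucose transporter gene Slc2a1 (0.94) and Chil1 (0.93). That of Slpi held Bpifb1, of the family of lipopolysaccharide-binding proteins (0.97), and Ctla2a, which encodes a cysteine protease inhibitor (0.95). That of Steap4 held Mmp13, the collagenase gene (0.97). Removing group means and leaving out BA replicate 4 spread the values of r within each list. The highest were 0.93 for Lcn2 with Sod2, 0.91 for Slpi with Saa1, 0.82 for Steap4 with Mmp13 and 0.81 for Chil1 with Tgfb2. The lowest were -0.24 for Lcn2 with Chil1, 0.46 for Slpi with Chil1, 0.40 for Steap4 with Saa1 and -0.36 for Chil1 with Saa2. Sod2 shared the high value of control replicate 5 with Lcn2: it was at 8.12, 8.11, 8.79, 6.96 and 8.99 on BA replicates 1 to 5, against 6.55, 6.55, 5.44, 5.57 and 7.83 on control replicates 1 to 5.

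Because neutrophils and macrophages also make Lcn2, Chil1 and Slpi, markers of blood cells were read on the same arrays. In RNA of a sorted bulk, fewer cells of a type and less RNA per cell cannot be told apart. The mean of 19 neutrophil markers was 7.49, 6.45, 6.68, 7.33 and 8.96 on BA replicates 1 to 5, against 6.53, 7.48, 6.24, 5.85 and 7.12 on control replicates 1 to 5. The highest value was on BA replicate 5, and the other BA arrays lay within or at the edge of the control range. Of the 19 markers, 17 had a higher mean in BA cells, against 7551 of all 19938 genes. At an unadjusted p under 0.05 (limma) 2 were higher (S100a8 and Cxcr2), against 4.13% of all genes. GCRMA values have no true zero, so no marker can be said to be at 0.

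Chil3, a chitinase-like relative of Chil1 made by neutrophils and macrophages, ran differently from the 4 genes. It stood at 8.19, 7.38, 7.44, 9.20 and 11.21 on BA replicates 1 to 5, against 5.81, 7.53, 5.09, 5.58 and 9.56 on control replicates 1 to 5. On BA replicate 4, where the 4 genes were lowest, Chil3 was the second highest among BA arrays, and control replicate 5 was above 4 of the 5 BA arrays. The lactoferrin gene Ltf, whose protein shares neutrophil granules with lipocalin 2, was at 7.54, 6.21, 7.47, 7.32 and 10.06 on BA arrays, against 6.19, 7.71, 6.74, 5.66 and 8.30 on control arrays. Both genes had control replicate 5 as their highest control, as Lcn2 did, and so did Camp, S100a8 and S100a9. Other neutrophil markers did not: Ngp, Mpo and Elane were highest among controls on replicate 2. The mean of the 19 neutrophil markers was also highest there, at 7.48 against 7.12 on control replicate 5.

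Pan-haematopoietic markers were above the control range on 1 BA array and macrophage markers on 2. The mean of 16 pan-haematopoietic markers lay between 5.95 and 6.22 on BA replicates 1 to 4 and at 7.85 on BA replicate 5, against 5.70 to 6.37 on control arrays. Ptprc, which encodes CD45, was at 5.75, 5.78, 5.73, 5.88 and 9.29 on BA replicates 1 to 5, against 5.54, 5.90, 5.73, 5.63 and 5.59 on control replicates 1 to 5. Beside the same 7551 of 19938 genes, 11 of these 16 markers had a higher mean in BA cells, as did 10 of 14 macrophage markers, whose mean ran from 5.56 to 6.69 on BA and from 5.61 to 5.86 on control arrays. The macrophage mean was 6.14 on BA replicate 1 and 6.69 on BA replicate 5. On the other 3 BA arrays it was 5.56 to 5.71, below control replicate 5 (5.86), while the other 4 controls lay between 5.61 and 5.67. The part of blood cell RNA in the 4 differences was not tested.

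With the pan-haematopoietic mean as a covariate, the differences were 4.17 for Lcn2, 4.39 for Chil1, 2.12 for Slpi and 2.69 for Steap4. Without BA replicate 5, the array with the highest blood cell marker means, they were 4.20, 4.32, 2.07 and 2.60.

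The labelled cell type was checked on bone and cartilage markers. The mean of 7 osteoblastic markers was 9.43, 9.03, 8.98, 9.70 and 8.73 on BA replicates 1 to 5, against 9.28, 9.50, 9.65, 9.88 and 10.05 on control replicates 1 to 5. BA replicate 4, with the lowest levels of the 4 genes among BA arrays, had the highest osteoblastic mean among them. Col1a2, a chain of the main collagen of bone, was at 10.19, 9.12, 9.27, 10.28 and 8.50 on BA arrays, against 10.49, 10.65, 10.78, 10.54 and 10.69 on control arrays. It was the only osteoblastic marker with no overlap between the groups. Col1a1, Dmp1 and Phex also had lower means in BA cells. By contrast, the BA minus control difference was 0.47 ± 0.27 (SE) for Alpl, 0.03 ± 0.43 for Sp7 and -0.01 ± 0.08 for Ibsp. The mean of 7 chondrocyte markers lay between 10.62 and 11.11 on BA and between 10.33 and 11.02 on control arrays, so cartilage transcripts were present in both groups. Of the osteoblastic markers 4 of 7 were lower in BA cells at an unadjusted p under 0.05 (limma) and 0 of 7 chondrocyte markers differed at that level. Over all genes 5.27% were lower and 4.13% higher. With group means removed, r with the osteoblastic mean over the 10 arrays was -0.36 for Lcn2, -0.73 for Chil1, -0.75 for Slpi and -0.76 for Steap4. With the chondrocyte mean, also highest among BA arrays on replicate 4 (11.11), it was -0.05, -0.53, -0.30 and -0.73 in that order. For the other cell type lists r lay between -0.43 (Lcn2, adipogenic and reticular stroma) and 0.38 (Lcn2, macrophages). The mean of 8 endothelial markers lay between 5.26 and 5.45 on BA and between 5.31 and 5.75 on control arrays. The mean of 8 adipogenic and reticular stroma markers lay between 6.33 and 8.01 on BA and between 7.16 and 9.54 on control arrays. Of these 8, 3 were lower in BA cells at an unadjusted p under 0.05, beside the same 5.27% of all genes. The part of such shifts in the 4 differences was not tested.

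**Figure D4:**
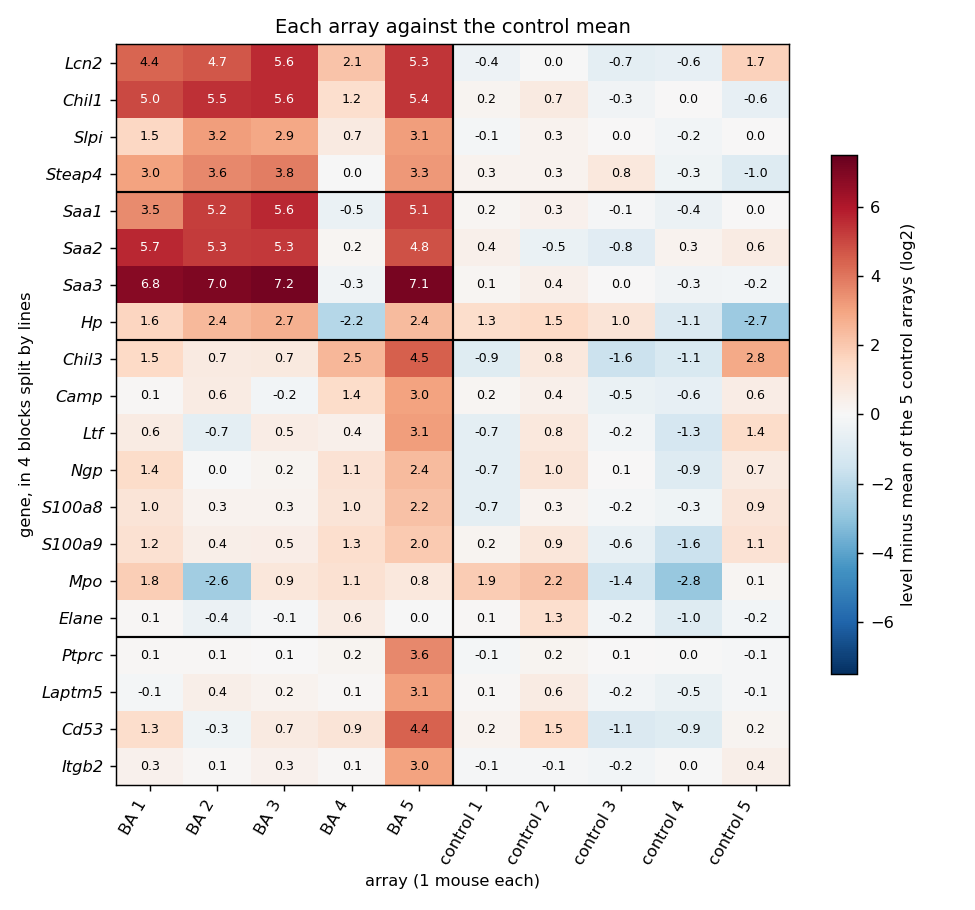
Level on each array minus the mean of the 5 control arrays (log2, colour and digits), BA arrays left of the line and control arrays right of it, for the 4 genes, serum amyloid A genes and haptoglobin, neutrophil granule genes and pan-haematopoietic genes, picked for this plot after their values were seen. BA replicate 4 is paler than the other BA arrays in the upper 2 blocks, with Lcn2 still 2.15 and Chil1 1.25 above the control mean, and the pan-haematopoietic block is red on BA replicate 5.

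Genes that work with or next to the 4 were read from the fit over all genes. They formed 12 lists with 179 genes measured, all outside the 4 themselves. None of the 179 passed limma at an adjusted p under 0.05. Over all genes, 0.00502% passed and were higher and 0% were lower. The 1 gene was Snord38a, named after its values were seen, with a difference of 2.45 ± 0.22 (SE). For the related genes given below as higher or lower the adjusted p lay between 0.384 and 0.526, and the plain equal-variance test called 0 genes. At an unadjusted p under 0.05, 27 of the 179 were higher in BA cells (15.1%) and 6 lower (3.35%), against 4.13% higher and 5.27% lower over all genes. With each array centred on its median the split over all genes was 969 higher and 821 lower, against 824 and 1051 as deposited. The 33 genes became 19 without BA replicate 5 and 21 without control replicate 3. The median difference over the 179 was 0.12, beside -0.06 over all genes. The lists were chosen with earlier results known.

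Close relatives of the 4 genes come first. Of 15 other lipocalins and acute-phase carriers, 1 was higher at an unadjusted p under 0.05 and 0 lower, with a median difference of -0.12. That gene was Rbp4, which encodes the retinol carrier of plasma and differed by 0.77 ± 0.34 (SE). Among 8 other chitinase-like and chitinase genes Chid1 was the 1 at this level (0.49 ± 0.21), and the difference of Chil3 was 1.97 ± 0.96 (unadjusted p = 0.0659, limma). Chit1, the active chitinase whose gene lies next to Chil1, differed by -0.03 ± 0.19. Of the 3 other STEAP genes, Steap2 differed by 0.47 ± 0.18 (unadjusted p = 0.0222, limma), Steap1 by 0.71 ± 0.39 and Steap3, the reductase of erythroid endosomes, by 0.10 ± 0.10.

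Among 16 WAP-domain and serine protease inhibitor genes, 1 was higher and 3 lower at an unadjusted p under 0.05. Serpina3n, an acute-phase inhibitor, was the higher one, at 9.67, 9.97, 10.11, 7.66 and 11.14 on BA replicates 1 to 5, against 9.07, 8.67, 5.84, 8.87 and 6.07 on control replicates 1 to 5. It shared the low value of BA replicate 4 but was widely spread among controls. Serpinf1, which encodes the anti-angiogenic factor PEDF, was lower by 0.85 on the log2 scale (-0.85 ± 0.20), with no overlap between groups. Wfdc5 (-0.30 ± 0.12) and Wfdc15a (-0.30 ± 0.13) were lower by less. Of 7 serine proteases of neutrophils and mast cells, 0 were higher and 1 was lower: Elane, the elastase that Slpi blocks, differed by 0.03 ± 0.36, the cathepsin G gene Ctsg by -0.53 ± 0.66 and the mast cell chymase gene Mcpt4 by -0.24 ± 0.10.

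Receptors and partners of the secreted proteins were read next. None of 5 genes linked to lipocalin 2 reached an unadjusted p under 0.05 in either direction (limma), with -0.19 ± 0.13 for its receptor gene Slc22a17, -0.20 ± 0.12 for the endocytic receptor gene Lrp2, -0.17 ± 0.12 for Mc4r and 0.11 ± 0.26 for Mmp9, whose protease forms a complex with lipocalin 2. Of 7 genes reported as receptors or binding partners of the human or mouse Chil1 protein, 4 were higher at that level and 0 lower. They were Cd44, the hyaluronan receptor (1.11 ± 0.37), Itgav (0.77 ± 0.19), the galectin-3 gene Lgals3 (0.63 ± 0.24) and Tmem219 (0.48 ± 0.19). Itgav encodes CD51, itself a target of the sorting antibodies, and it was at 9.42 on control replicate 5 and at 8.45 to 8.70 on the other controls. The interleukin-13 receptor gene Il13ra2, partner of Tmem219, differed by -0.13 ± 0.13. Cd44 was at 8.12 on BA replicate 4 and between 9.46 and 9.90 on the other BA arrays, so it shared the low value of that array with the 4 genes.

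Of 35 genes of iron uptake, storage, export and haem, 4 were higher at an unadjusted p under 0.05 and 0 lower, with a median difference of 0.27. Slc39a14, which encodes the importer ZIP14 for iron not bound to transferrin, differed by 1.25 ± 0.42. Its values were 7.35, 8.94, 8.95, 6.87 and 8.37 on BA replicates 1 to 5, against 6.24, 7.38, 7.29, 6.64 and 6.69 on control replicates 1 to 5, with BA replicates 1 and 4 inside the control range. The transferrin receptor gene Tfrc differed by 1.11 ± 0.45, Fbxl5, an iron-sensing subunit of a ubiquitin ligase, by 0.75 ± 0.28 and the hepcidin gene Hamp by 0.56 ± 0.18. Hamp was dim, with means of 5.30 in BA and 4.74 in control cells, below the median of every array. On BA replicate 1 Hamp (4.98) was below control replicates 1 and 3 (5.10 on each). Fth1, the heavy chain of ferritin, differed by 0.16 ± 0.08 and ceruloplasmin (Cp), a ferroxidase, by 0.38 ± 0.47. Of 10 genes of copper handling 0 reached an unadjusted p under 0.05 (limma), with 0.51 ± 0.24 for the metallothionein gene Mt2 and 0.19 ± 0.59 for the copper importer gene Slc31a1.

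Acute-phase and antimicrobial genes had the highest median difference of the 12 lists. Of 23 measured, 22 had a higher mean in BA cells, against 7551 of all 19938 genes, and 7 were higher at an unadjusted p under 0.05, against 4.13%. The median difference was 0.95. Camp, Ngp, S100a8 and S100a9 on this list are also among the neutrophil markers above, and each had a higher mean in BA cells. The part of blood cell RNA in the differences of this list was not tested. Saa3 was at 11.88, 12.09, 12.27, 4.80 and 12.19 on BA replicates 1 to 5, against 5.22, 5.43, 5.09, 4.78 and 4.84 on control replicates 1 to 5. As for Steap4, 4 BA arrays were above all controls and BA replicate 4 was within the control range. Nos2, the inducible nitric oxide synthase gene, differed by 1.80 ± 0.63, Sod2 by 1.81 ± 0.50, S100a8 by 0.94 ± 0.40 and the haptoglobin gene Hp by 1.40 ± 1.08.

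Among 24 inducing cytokines and receptors, 4 were higher and 1 lower at an unadjusted p under 0.05, with a median difference of 0.00. The 4 were ligands: Il1a (2.06 ± 0.60), Il6 (1.80 ± 0.77), Lif (1.37 ± 0.53) and Il1b (1.24 ± 0.48). Il22ra1, a receptor gene, was the lower one (-0.29 ± 0.13). The receptor subunit genes Il6st (0.02 ± 0.15) and Osmr (0.42 ± 0.28) did not reach this level. Il1a did not follow the 4 genes array by array: it was at 4.26, 6.71, 6.23, 5.69 and 8.35 on BA replicates 1 to 5, against 4.06, 4.08, 4.25, 4.07 and 4.49 on control replicates 1 to 5. BA replicate 1, with Chil1 at 12.26, was thus within the control range of Il1a. Il6 and Lif had their lowest BA value on BA replicate 4 (6.70 and 6.17), inside their control ranges of 4.40 to 8.91 and 5.79 to 7.30. BA replicate 1 lay inside these ranges too (7.96 and 6.89), as did Il6 on BA replicates 3 and 5 (8.65 and 8.78). Il1b had its lowest BA value on BA replicate 2 (6.95).

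Of 26 transcription factor and feedback genes, 4 were higher and 1 lower at this level. Rel, an NF-kB subunit gene, was 0.71 ± 0.22 higher with no overlap between the groups, although the lowest BA array was at 10.29 and the highest control at 10.25. Atf3 (0.53 ± 0.23), Nfkbiz (0.46 ± 0.16), whose product helps induce Lcn2, and the Krüppel-like factor gene Klf5 (0.33 ± 0.10) followed. Nfkbie, an inhibitor of NF-kB, was lower (-0.37 ± 0.16). On BA replicate 4 Rel was at 10.46, within the 10.29 to 10.72 of the other BA arrays. Nfkbiz was at 10.18 there, the second lowest BA value and inside the control range, and Nfkbie at 5.35, its lowest BA value. Neither was particular to that array. Nfkbiz on BA replicates 1 (10.29) and 2 (10.16) was also no higher than the highest control (10.29), and Nfkbie was at 5.36 on BA replicate 1.

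**Figure D5:**
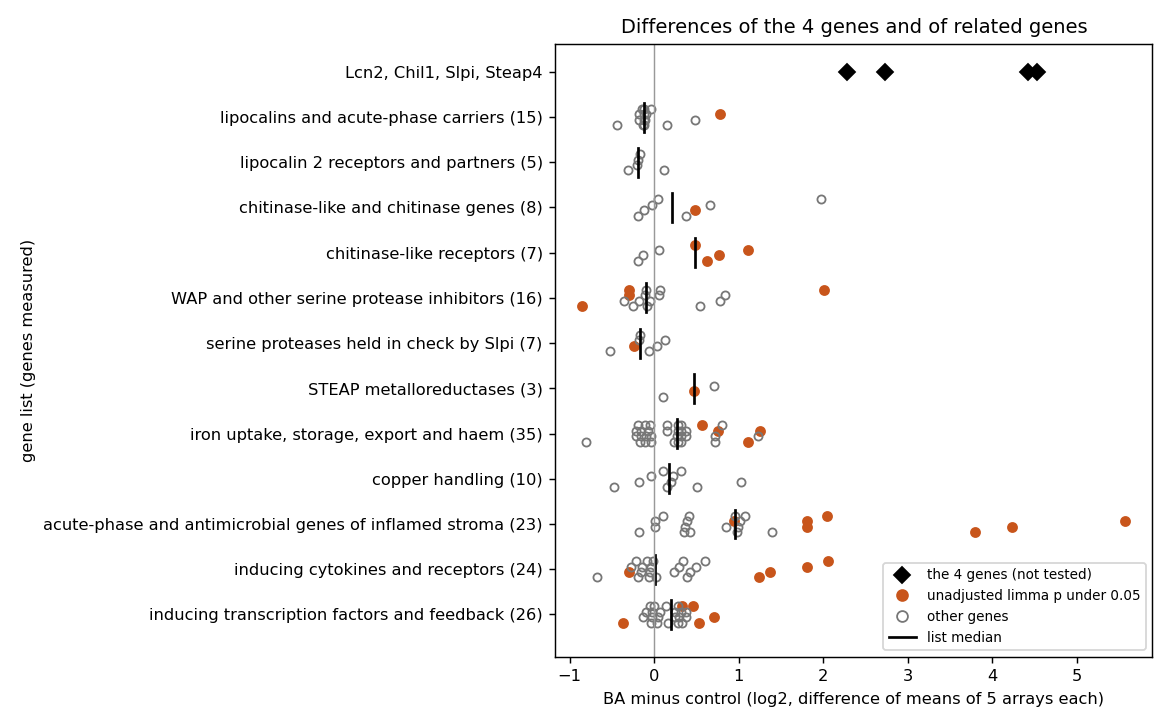
BA minus control difference (x axis, log2) of the 4 genes (diamonds, not tested) and of 179 related genes by list, filled where the unadjusted limma p was under 0.05 and open otherwise; vertical bars are list medians. The 4 genes lie between 2.28 and 4.53, and the related genes beyond 2.28 are Saa1, Saa2 and Saa3.

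The genes beside each of the 4 on the chromosome were also read, by position alone: the 3 nearest protein-coding genes on each side in the RefSeq table of GRCm38.p6. Lcn2 and Slpi lie on chromosome 2, Chil1 on chromosome 1 and Steap4 on chromosome 5. Of the 24 neighbours 22 were measured, and 0 of them reached an unadjusted p under 0.05 in either direction (limma). Over all genes 4.13% were higher and 5.27% lower, so 0 among so few genes says little. The genes adjacent to Lcn2 differed by 0.05 ± 0.14 (1110008P14Rik) and -0.18 ± 0.19 (Ptges2), those adjacent to Slpi by -0.05 ± 0.09 (Svs5) and 0.31 ± 0.17 (Matn4), and those adjacent to Steap4 by -0.03 ± 0.13 (Tex47) and -0.06 ± 0.43 (Sri). Sdc4, the third gene beyond Slpi, differed by 0.27 ± 0.14.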

How the data were processed

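RNA levels were measured on Affymetrix mouse Gene ST 1.0 arrays, 5 of BA and 5 of control OBCs. The authors deposited log2 values for 35557 probe sets, made with GCRMA per the submitters' processing notes (its version and the genome build are not given in the sources used here). That the base is 2 was inferred from GCRMA and the range of 1.21 to 13.7. GCRMA corrects background, normalizes arrays together and compresses low values. The RNA was amplified from few cells, per the labels' protocols, which can add spread between arrays. Scanner files were not used, and without detection calls no level could be set against background. Precision is limited by the number of arrays. Array medians lay between 5.91 and 6.02.

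Genes were named from the platform annotation: 21789 probe sets had 1 symbol, 1621 several and 12147 none. The probe set with the highest mean stood for each of 19938 genes. The fit over all genes, BA minus control, used limma 3.58.1 (R 4.3.3; default eBayes, two-sided, Benjamini-Hochberg over all genes, threshold 0.05), which was tested on simulated data. Each mouse is 1 replicate. The 4 genes and all lists were chosen with earlier results of these data known, and the 4 got no test. Of 197 list entries 179 matched. Short lists could be named in full, longer ones by their 5 smallest p and 3 highest means. Ltf, the neighbours by position and the genes of the heat map were named outside that rule, after values were seen. Same-numbered arrays were checked for pairing: correlations of their deviations ran from -0.10 to 0.11, so the numbers were not taken as pairs. Alternatives were quantile normalization, median centring, a filter on dim genes, other variance models, the mean of probe sets, a replicate block, a blood marker covariate, splits by Xist and leaving out each array.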

Additional observations from a re-analysis of the deposited data

Results flagged for a closer look

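In groups of 5 arrays, 21 values stood apart from the other 4 arrays of their group by Dixon's criterion, among 206 groups looked at. These were the BA and the control arrays for each of the 4 genes, the related genes open to naming, the genes most like the 4 and the means of the cell type marker lists. For unrelated values chance gives about 1 in 20, but that rate does not apply to genes taken because they correlate with the 4 over these arrays, such as Asic3, Mmp3, Mmp13 and the Saa genes, which share low values with them by choice. Of the 21, 12 were low values on BA replicate 4, and 2 of these belong to the 4 genes: Chil1 at 8.55 (other BA arrays 12.26 to 12.92) and Steap4 at 7.95 (11 to 11.80). Lcn2 and Slpi did not meet the criterion on that array.

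The other low values on BA replicate 4 were Saa3 at 4.80, Saa2 at 4.54, Mmp3 at 5.88, Hp at 8.0, Asic3 at 5.87, Cp at 8.41, Mmp13 at 10.73, Cd44 at 8.12, Mt2 at 10.71 and Fth1 at 12.23. On control replicate 5 the values that stood apart were Cox17 (a copper chaperone of the respiratory chain) at 6.67 and Egr1 at 11.36, both low, and Itgav at 9.42, Atox1 (a copper chaperone) at 9.77, Chil4 at 3.14 and the mean of the macrophage markers at 5.86, all high. On BA replicate 5 they were the mean of the pan-haematopoietic markers at 7.85 and Cox17 at 10.70, both high, and on BA replicate 2 Klf5 at 7.03, low.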

How the results depend on the processing

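The BA minus control difference of each of the 4 genes kept its sign under every alternative run and moved by less than the SD of the BA arrays. Its largest move was above the SD of the control arrays for each gene. It ran from 3.50 to 5.43 for Lcn2, from 4.26 to 5.35 for Chil1, from 2.06 to 2.69 for Slpi and from 2.46 to 3.42 for Steap4. With the replicate number as a block, which in this balanced design cannot change a difference of means, it was 4.43 for Lcn2. Calls after adjustment over all genes, 1 as reported, numbered 0 among genes above the median level, with the plain test, with the replicate block and with the blood marker covariate. They ran from 0 to 13 when 1 array was left out, with 13 without BA replicate 4, and numbered 13 without BA replicate 4 and control replicate 5 together (chosen after seeing the data). The cause was not tested. At an unadjusted p under 0.05 the 1875 genes became 1019 above the median level, where fewer genes are tested, and ran from 1354 to 2513 when 1 array was left out. The related genes at that level, 33 as reported, ran from 19 (without BA replicate 5) to 38 when 1 array was left out, and were 39 without BA replicate 4 and control replicate 5. With the replicate block they were 37.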
